A study of Mus musculus with 5 samples.

Results

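Type I interferon response genes are the genes that cells switch on when interferon alpha or beta binds its receptor. The 37 genes described here were fixed by name as interferon-stimulated genes, leaving out the GBP and IRG GTPases and the MHC genes, and all 37 had a row in the deposited table of 56748 genes. All 37 also passed the low-count filter, which kept 17724 genes, and no member fell below 174 counts in any library, nor below 5.28 CPM (counts relative to library size, TMM-scaled). RNA came from brain cells positive for CD11b, the integrin chain of microglia and other myeloid cells, taken without the cerebellum from 5 mice aged 7 months. The compared genotypes both carried 5xFAD, a transgenic amyloid model of Alzheimer's disease. The 5xFAD group had 2 mice (numbers 1 and 3), and the 5xFAD/Cd5l tg/wt group, called Cd5l-transgenic below, had 3 mice (numbers 1, 2 and 3) in which the human PDGF-B promoter also drove mouse Cd5l. CD5L is a secreted scavenger-receptor-family protein of macrophages. That promoter is commonly used to drive expression in neurons. The labels give neither sex, nor founder lines, nor the way the cells were isolated, and wild-type mice were not analysed here.

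Type I interferons bind the receptor made of IFNAR1 and IFNAR2, whose kinases JAK1 and TYK2 phosphorylate STAT2. With IRF9 it is part of the complex ISGF3, which binds interferon-stimulated response elements in promoters and starts transcription of antiviral effectors, nucleic acid sensors and the transcription factor IRF7, which raises interferon production further. In the brain a small class of microglia carries this programme, and it is known to grow with age and in amyloid models.

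The libraries held between 30798377 and 34794617 counts, and 1 count equalled 0.0282 to 0.0339 CPM. Microglial marker genes were abundant in every library: the CD11b gene Itgam stood at 306 to 363 CPM and the summed list of 8 microglial markers at 22170 to 24260 CPM. Cd5l, the check of the labels, had 45 and 9 counts in 5xFAD mice 1 and 3, against 7230, 10680 and 6438 counts in Cd5l-transgenic mice 1, 2 and 3. It matched the genotype labels in every library.

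The response element in its core form was searched as GAAANNGAAA on both strands in the RefSeq promoter windows of build GRCm38.p6, from 250 bases before to 50 bases after each start site. Windows were found for 28 of the 37 genes, and 15 of the 28 (53.6%) held these letters, against 3.99% of all 27025 genes and 3.44% of all 32851 windows. A second motif, the gamma-activated site written as TTCNNNGAA, was in 25% of the 28 genes and in 9.55% of all genes. The 250 bases before the start are printed below for genes that show how the motif and the values lined up, in lower case with every GAAANNGAAA or its reverse TTTCNNTTTC in capitals. Stat2, Isg15 and Bst2 hold the letters and did not overlap between the genotypes, Irf7 did not overlap and has no match in this window, Oas1a holds them next to its start and hardly differed, and Ifit3 and Ifit3b are near copies of each other.
Stat2 (chr10:128270248-128270497, plus strand): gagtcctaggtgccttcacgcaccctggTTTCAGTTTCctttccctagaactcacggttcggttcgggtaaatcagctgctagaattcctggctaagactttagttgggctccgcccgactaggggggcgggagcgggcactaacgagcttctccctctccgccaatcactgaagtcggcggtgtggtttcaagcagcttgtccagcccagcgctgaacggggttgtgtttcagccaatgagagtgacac
Isg15 (chr4:156200819-156201068, minus strand): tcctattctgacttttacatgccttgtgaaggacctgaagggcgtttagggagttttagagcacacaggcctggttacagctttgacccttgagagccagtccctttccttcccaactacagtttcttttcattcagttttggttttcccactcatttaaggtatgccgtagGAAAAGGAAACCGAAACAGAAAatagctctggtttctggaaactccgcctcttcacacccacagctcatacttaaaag
Bst2 (chr8:71537473-71537722, minus strand): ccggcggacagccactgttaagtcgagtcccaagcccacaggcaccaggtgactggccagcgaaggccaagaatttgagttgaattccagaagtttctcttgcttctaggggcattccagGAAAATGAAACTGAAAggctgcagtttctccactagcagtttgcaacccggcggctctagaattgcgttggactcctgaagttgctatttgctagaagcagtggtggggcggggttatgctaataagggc
Irf7 (chr7:141266425-141266674, minus strand): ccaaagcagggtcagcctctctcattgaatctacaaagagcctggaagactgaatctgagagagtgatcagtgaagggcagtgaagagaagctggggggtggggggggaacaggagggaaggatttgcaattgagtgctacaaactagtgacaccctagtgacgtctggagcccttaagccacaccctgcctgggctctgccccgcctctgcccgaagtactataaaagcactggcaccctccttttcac
Oas1a (chr5:120907526-120907775, minus strand): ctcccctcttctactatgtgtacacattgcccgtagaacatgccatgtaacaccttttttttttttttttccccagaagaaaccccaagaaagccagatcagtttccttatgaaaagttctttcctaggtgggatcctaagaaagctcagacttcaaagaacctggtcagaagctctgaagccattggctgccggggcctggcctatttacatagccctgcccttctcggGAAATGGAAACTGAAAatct
Ifit3 (chr19:34583279-34583528, plus strand): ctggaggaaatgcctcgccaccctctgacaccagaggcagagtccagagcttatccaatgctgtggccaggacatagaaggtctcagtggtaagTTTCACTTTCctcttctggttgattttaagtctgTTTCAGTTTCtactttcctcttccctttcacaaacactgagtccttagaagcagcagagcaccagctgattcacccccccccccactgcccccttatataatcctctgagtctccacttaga
Ifit3b (chr19:34607707-34607956, plus strand): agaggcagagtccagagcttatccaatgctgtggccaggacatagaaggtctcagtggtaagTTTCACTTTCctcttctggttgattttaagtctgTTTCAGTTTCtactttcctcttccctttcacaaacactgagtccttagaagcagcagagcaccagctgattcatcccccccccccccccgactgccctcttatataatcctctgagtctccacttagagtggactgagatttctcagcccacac
In Isg15 the letters occur 3 times in overlapping register, starting 78 bases before the start site, and in Bst2 and Oas1a 2 times in overlapping register, starting 130 and 20 bases before it. Ifit3 and Ifit3b each hold 2 separate matches, and their upstream stretches are 86.2% identical over 218 bases when shifted by 32 bases without gaps. A match is a run of letters and not a measured binding site.

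Most interferon response genes lay slightly higher in the Cd5l-transgenic libraries, and none passed the test over all genes. The log2 fold change (Cd5l-transgenic minus 5xFAD, edgeR quasi-likelihood test) was above 0 for 33 of 37 genes, where 42.7% of all tested genes lay above 0. The median of the 37 was 0.15, with the middle of the distribution between 0.08 and 0.26 (quartiles), against a median of -0.03 over all genes. In 14 of 37 genes (37.8%) every transgenic library lay above both 5xFAD libraries, against 7.2% of all tested genes, and in 0 of 37 every transgenic library lay below, against 8.69%. The differences were small: the largest fold change was that of Zbp1, with a ratio of means of 1.40, and the summed level of the 37 genes averaged 2318 ± 124 CPM (SD, n = 3) in the transgenic mice and 2094 ± 78.2 CPM (SD, n = 2) in the 5xFAD mice, 1.11 times as high.

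edgeR called 0 of 37 genes at an adjusted p under 0.05 (lowest adjusted p = 0.995), as it called 0% of all 17724 genes, Cd5l included (adjusted p = 0.448). At an unadjusted p under 0.05 there were 5 of 37 higher (13.5%: Stat2, Irf7, Isg15, Ifitm3 and Mx1) and 0 lower, against 1.14% higher and 1.5% lower among all genes. The DESeq2 Wald test called 0 of 37, where it called 0.0963% of all genes, and 9 were higher at an unadjusted p under 0.05, against 2.55% of all genes. limma-voom also called 0, with 7 at an unadjusted p under 0.05, against 3.12% of all genes in either direction. Without 5xFAD mouse 1 the 5 genes became 0, against 0.66% of all genes, and without Cd5l-transgenic mouse 3 there were 3 higher and 1 lower (Cxcl10), against 2.71% higher of all genes.

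**Figure D1:**
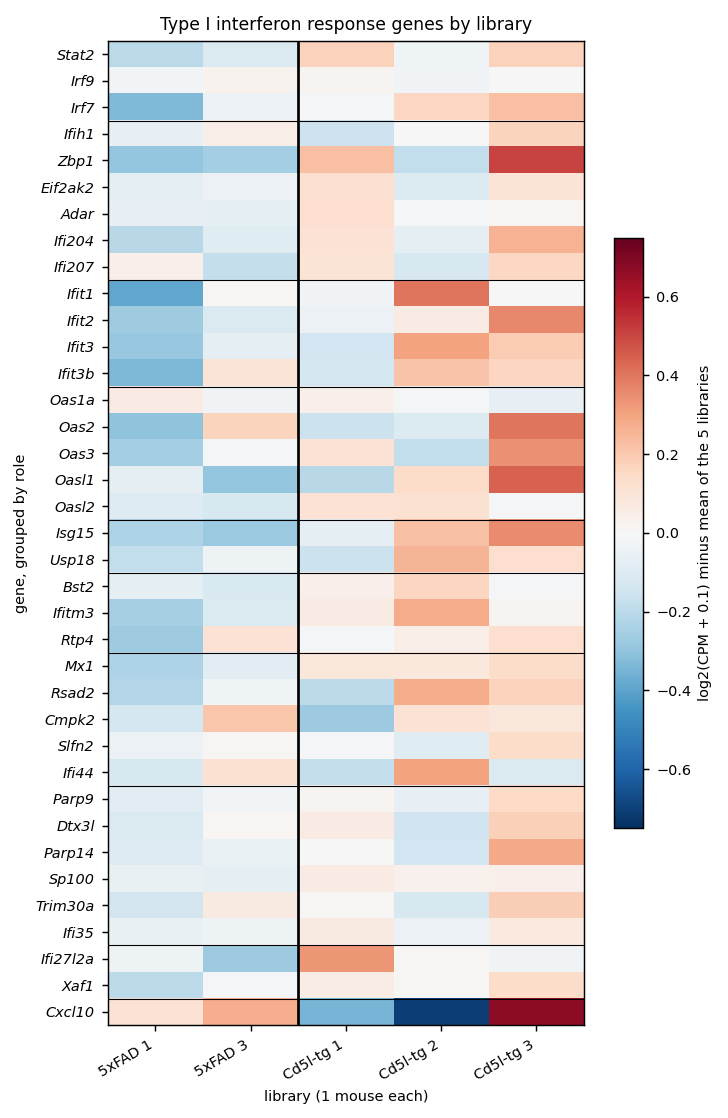
Heat map of the 37 interferon response genes (rows, grouped by role with thin lines between groups) in the 5 libraries (columns, 5xFAD left of the thick line). Colour gives log2(CPM + 0.1) minus the mean of the 5 libraries, red above and blue below. The column of 5xFAD mouse 1 is mostly blue, with the lowest value of 19 of 37 genes, and that of Cd5l-transgenic mouse 3 mostly red, with the highest value of 20.

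By library, the genes were lowest in 5xFAD mouse 1 and highest in Cd5l-transgenic mouse 3. Their summed level was 2039 and 2149 CPM in 5xFAD mice 1 and 3, and 2280, 2218 and 2456 CPM in Cd5l-transgenic mice 1, 2 and 3, without overlap between the genotypes. The lowest of the 5 values fell in 5xFAD mouse 1 for 19 genes (51.4%, against 21.5% of all genes). It fell in 5xFAD mouse 3 for 8 (21.6%, against 16.4%). The highest fell in Cd5l-transgenic mouse 3 for 20 genes (54.1%, against 18.8% of all genes). It fell in mouse 2 for 9 (24.3%, against 21.2%) and in mouse 1 for 5 (13.5%, against 14.6%). The remaining 3 genes peaked in a 5xFAD library: Oas1a in mouse 1, Irf9 and Cmpk2 in mouse 3.

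Different genes peaked in different transgenic mice. The 9 genes highest in Cd5l-transgenic mouse 2, a share near that of all genes, were Ifit1, Ifit3, Ifit3b, Oasl2, Usp18, Bst2, Ifitm3, Rsad2 and Ifi44. The 20 highest in mouse 3 included Irf7, Zbp1, Ifi204, Ifit2, Oas2, Oas3, Oasl1, Isg15, Mx1, Parp14 and Cxcl10. In mouse 2, 6 genes (16.2%, against 27.7% of all genes) had their lowest value of all 5 libraries: Irf9, Eif2ak2, Slfn2, Dtx3l, Parp14 and Cxcl10.

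Of the 3 genes of signalling and transcription, Stat2 and Irf7 did not overlap between the genotypes (66.7%, against 7.2% of all tested genes). Irf9 was level. The role groups are small, so that their shares are coarse. Stat2, a subunit of ISGF3 (chromosome 10, 128106428 to 128128718, GRCm39), stood at 101.1 and 108 CPM in 5xFAD mice 1 and 3 and at 132, 114 and 131 CPM in Cd5l-transgenic mice 1, 2 and 3. The log2 fold change of Stat2 was 0.26 (SE 0.09, edgeR unadjusted p = 0.0307, adjusted p = 0.995). All 3 transgenic libraries exceeded both 5xFAD libraries, with mouse 2 only just above. Irf7, the factor that amplifies interferon production (chromosome 7, 140842619 to 140846394), stood at 31.6 and 38.6 CPM in the 5xFAD mice against 39.7, 44.3 and 46.7 CPM in the transgenic mice, a log2 fold change of 0.31 (SE 0.12, edgeR adjusted p = 0.995), and of 0.18 without 5xFAD mouse 1. Its 5xFAD libraries differed from each other by more than the gap between the nearest libraries of the genotypes. It overlaps Phrf1 on the other strand by 45 bases. Irf9, the DNA-binding subunit of ISGF3, stood at 89.5 and 92.4 CPM in the 5xFAD mice against 92.0, 89.0 and 90.9 CPM in the transgenic mice, and its 95% interval of the log2 fold change ran from -0.17 to 0.16.

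All 6 nucleic acid sensors lay above 0 (against 42.7% of all tested genes), 3 of them without overlap (50%, against 7.2%). Zbp1, the sensor of Z-form nucleic acids that can start necroptosis (chromosome 2, 173048405 to 173060716), stood at 20.8 and 21.4 CPM in the 5xFAD mice against 29.8, 22.5 and 36.4 CPM in the transgenic mice. The log2 fold change of Zbp1, 0.49 (SE 0.21), was the highest of the 37 and rested on Cd5l-transgenic mice 1 and 3, since mouse 2 lay near the 5xFAD values. Ifi204, a DNA sensor of the interferon-inducible p200 family (chromosome 1, 173574859 to 173594509), had 81.8 and 89.0 CPM in the 5xFAD mice against 102, 90.0 and 114 CPM in the transgenic mice, a log2 fold change of 0.26 (SE 0.11). Its neighbour Ifi207, 5.55 kb away and of the same family, overlapped, with a log2 fold change of 0.12. Adar, the double-stranded RNA editing enzyme that limits sensing of a cell's own RNA, stood at 143 and 143 CPM in the 5xFAD mice against 163, 149 and 152 CPM in the transgenic mice (log2 fold change 0.11, SE 0.08, and 0.07 without Cd5l-transgenic mouse 1). Eif2ak2, the RNA-activated kinase PKR, had a log2 fold change of 0.10, and Ifih1, the RNA helicase MDA5, was the lowest of the group at 0.01 (95% interval -0.26 to 0.29). Ifih1 had 55.3 and 59.8 CPM in the 5xFAD mice against 51.8, 57.6 and 64.8 CPM in the transgenic mice, whose ends lay outside the 5xFAD values on both sides.

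**Figure D2:**
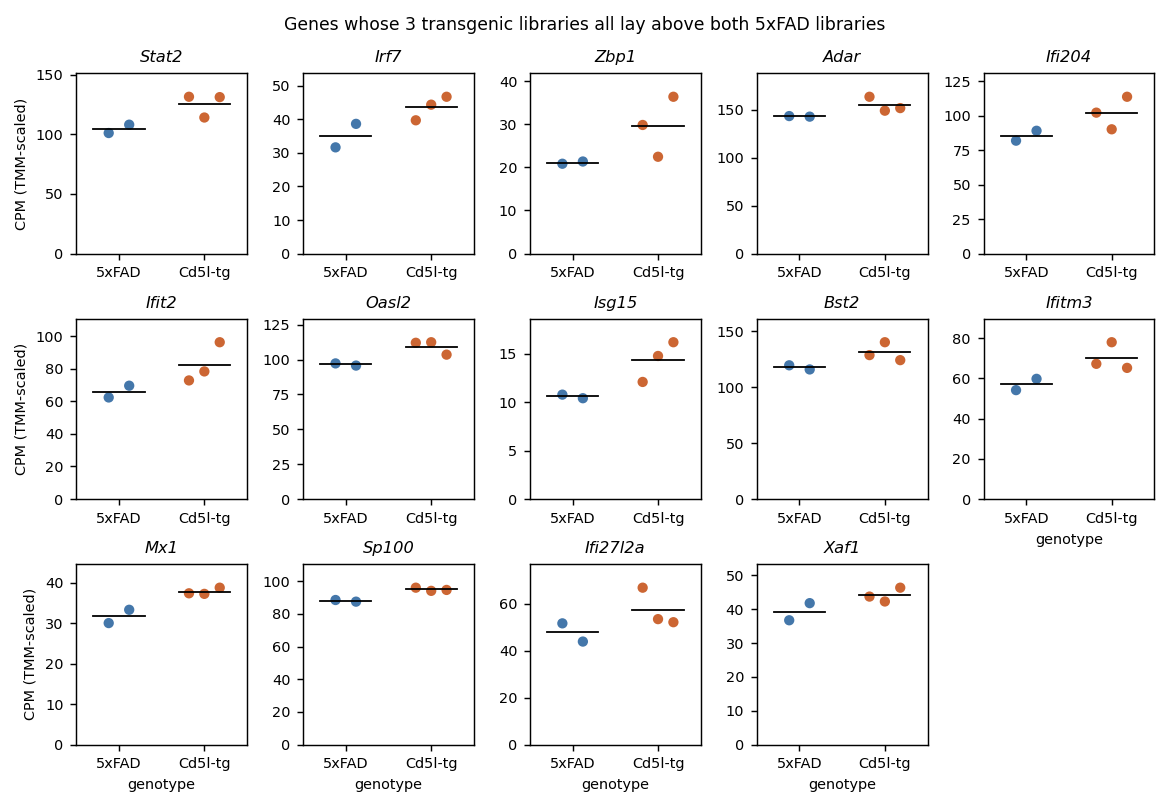
TMM-scaled CPM of the 14 genes whose 3 Cd5l-transgenic libraries (orange) all lay above both 5xFAD libraries (blue), 1 point per mouse with the group mean as a line and each axis starting at 0. The gaps between groups are narrow beside the levels, as for Xaf1 (41.8 CPM in the higher 5xFAD library and 42.3 CPM in the lowest transgenic one).

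The 4 IFIT genes, whose proteins bind viral RNA or block its translation, sit together on chromosome 19. All lay above 0 (against 42.7% of all tested genes), with log2 fold changes from 0.19 to 0.32. Ifit2 (chromosome 19, 34528094 to 34553819) was the 1 without overlap (25%, against 7.2% of all tested genes). Ifit2 stood at 62.3 and 69.5 CPM in the 5xFAD mice against 72.8, 78.3 and 96.2 CPM in the transgenic mice (log2 fold change 0.32, SE 0.14). Ifit1 stood at 11.6 and 15.3 CPM in the 5xFAD mice against 14.9, 20.1 and 15.3 CPM in the transgenic mice. Only its value in Cd5l-transgenic mouse 2 stood clear of 5xFAD mouse 3. Ifit3 stood at 39.6 and 46.0 CPM in the 5xFAD mice against 43.7, 59.4 and 54.9 CPM in the transgenic mice, a log2 fold change of 0.30 (SE 0.15), with mouse 1 inside the 5xFAD range. Ifit3b, its near copy 19.2 kb away, had 7.79 and 10.6 CPM in the 5xFAD mice against 8.99, 11.5 and 11.0 CPM in the transgenic mice, a log2 fold change of 0.19, and of -0.0046 without 5xFAD mouse 1. Counts of Ifit3 and Ifit3b depend on how reads shared by the copies were assigned.

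The OAS family is known for enzymes that make the 2'-5' oligoadenylates that activate RNase L. Among its 5 genes, 4 lay above 0 (80%, against 42.7% of all tested genes) and 1 did not overlap (20%, against 7.2%). Oasl2 (chromosome 5, 115034997 to 115050295) stood at 97.2 and 95.7 CPM in the 5xFAD mice against 112, 112 and 104 CPM in the transgenic mice, a log2 fold change of 0.18 (SE 0.07). Oasl1, a member without that enzyme activity which restrains IRF7 translation in the mouse, was the highest of the group at 0.34 (SE 0.24) but overlapped, with 6.17 and 5.28 CPM in the 5xFAD mice against 5.62, 7.15 and 8.87 CPM in the transgenic mice. Without Cd5l-transgenic mouse 3 the log2 fold change of Oasl1 was 0.185. Oas1a was level, at 50.1 and 47.0 CPM in the 5xFAD mice against 49.2, 47.5 and 46.0 CPM in the transgenic mice (log2 fold change -0.03, 95% interval -0.21 to 0.16). Oas2 and Oas3, adjoining genes 3.24 kb apart, stood at 0.11 and 0.23, each highest in Cd5l-transgenic mouse 3.

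Isg15, the ubiquitin-like modifier of the response (chromosome 4, 156283912 to 156285253), stood at 10.8 and 10.4 CPM in the 5xFAD mice against 12.1, 14.8 and 16.2 CPM in the transgenic mice. The log2 fold change of Isg15 was 0.44 (SE 0.16, edgeR unadjusted p = 0.032, adjusted p = 0.995), and the 5xFAD libraries lay closer together than the transgenic ones. Usp18, the protease that removes ISG15 and dampens receptor signalling, stood at 28.4 and 31.3 CPM in the 5xFAD mice against 28.8, 38.5 and 35.2 CPM in the transgenic mice (log2 fold change 0.19, SE 0.14), with Cd5l-transgenic mouse 1 at the 5xFAD level.

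Ifitm3 and Bst2, membrane proteins that block virus entry and tether budding virus, did not overlap between the genotypes. They were 66.7% of a role group of 3, against 7.2% of all tested genes. Ifitm3 (chromosome 7, 140589499 to 140590683) stood at 54.2 and 59.8 CPM in the 5xFAD mice against 67.3, 78.0 and 65.2 CPM in the transgenic mice, a log2 fold change of 0.30 (SE 0.11, edgeR unadjusted p = 0.0302, adjusted p = 0.995). Bst2, tetherin (chromosome 8, 71986899 to 71990100), stood at 119 and 116 CPM in the 5xFAD mice against 129, 140 and 124 CPM in the transgenic mice (log2 fold change 0.15, SE 0.08). Both genes were highest in Cd5l-transgenic mouse 2. That library was also highest in endothelial, mural, erythroid, oligodendrocyte, astrocyte and neuron marker RNA, and a link to these was not tested. Without Bst2 and Ifitm3, the summed level of the interferon genes was 1865 and 1974 CPM in the 5xFAD mice. In the transgenic mice it was 2084, 2000 and 2267 CPM. Which cells the RNA of the remaining interferon genes came from was not tested either. Rtp4, a chaperone of receptors, overlapped, with 24.0 and 31.2 CPM in the 5xFAD mice against 28.6, 29.98 and 31.7 CPM in the transgenic mice (log2 fold change 0.12). It shares 525 bases with Masp1 on the other strand. Per kilobase of gene length, Bst2 (139 CPM per kb), Ifi27l2a (116 CPM per kb) and Ifitm3 (95.7 CPM per kb) had the highest levels of the 37 genes over all libraries, and Ifi44 the lowest (1.72 CPM per kb).

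Mx1, the dynamin-like antiviral GTPase (chromosome 16, 97248235 to 97264107), had the smallest unadjusted p of the 37 genes (edgeR unadjusted p = 0.0231, adjusted p = 0.995). Mx1 stood at 30.1 and 33.4 CPM in the 5xFAD mice against 37.4, 37.3 and 38.8 CPM in the transgenic mice, a log2 fold change of 0.25 (SE 0.08). The transgenic values of Mx1 lay closer together than the 5xFAD values. Rsad2, viperin, and Cmpk2, a mitochondrial nucleotide kinase, adjoin each other 12.8 kb apart on chromosome 12 and had opposite signs, 0.22 and -0.07, both overlapping. Cmpk2 stood at 12.9 and 16.4 CPM in the 5xFAD mice against 11.7, 15.3 and 15.04 CPM in the transgenic mice. Slfn2 and Ifi44 were near 0, at 0.03 and 0.02.

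The 6 genes of ADP-ribosylation, ubiquitin transfer and nuclear bodies all lay above 0 (against 42.7% of all tested genes), in a narrow band from 0.06 to 0.13. Sp100, a scaffold of PML nuclear bodies (chromosome 1, 85577709 to 85637719), was the 1 without overlap (16.7%, against 7.2% of all tested genes). Sp100 stood at 88.5 and 87.5 CPM in the 5xFAD mice against 96.1, 94.2 and 94.7 CPM in the transgenic mice (log2 fold change 0.11, SE 0.07). Parp14, an ADP-ribosyltransferase, had the highest value of the group, 0.13, and stood at 139 and 143 CPM in the 5xFAD mice against 148, 134 and 180 CPM in the transgenic mice, so that Cd5l-transgenic mouse 3 alone stood apart. Trim30a, a RING-type ubiquitin ligase, had the lowest, 0.06 (SE 0.12), with 151 and 174 CPM in the 5xFAD mice against 167, 153 and 189 CPM in the transgenic mice. Ifi35 lay between them at 0.08, its transgenic mouse 2 level with the 5xFAD mice. The partners Parp9 and Dtx3l, a mono-ADP-ribosyltransferase and its E3 ligase, overlap head to head by 682 bases and stood at 0.09 and 0.08. With no strand setting given, reads in that overlap cannot be assigned to either gene.

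Ifi27l2a and Xaf1, the 2 genes linked to mitochondria and to cell death, did not overlap between the genotypes (against 7.2% of all tested genes). Ifi27l2a (chromosome 12, 103408426 to 103409939) stood at 51.6 and 43.9 CPM in the 5xFAD mice against 66.8, 53.4 and 52.1 CPM in the transgenic mice (log2 fold change 0.27, SE 0.14), with Cd5l-transgenic mice 2 and 3 barely above 5xFAD mouse 1. It was 0.15 without 5xFAD mouse 3 and 0.145 without Cd5l-transgenic mouse 1. Xaf1 (chromosome 11, 72192455 to 72204559), an antagonist of the apoptosis inhibitor XIAP, had 36.7 and 41.8 CPM in the 5xFAD mice against 43.7, 42.3 and 46.4 CPM in the transgenic mice (log2 fold change 0.17, SE 0.09). Its lowest transgenic library lay next to 5xFAD mouse 3, and the fold change of Xaf1 was 0.08 without 5xFAD mouse 1 and 0.26 without 5xFAD mouse 3.

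Cxcl10, the chemokine that draws CXCR3-bearing T cells, was the most variable of the genes and the one with the lowest fold change. Cxcl10 stood at 33.1 and 37.2 CPM in the 5xFAD mice against 24.1, 18.8 and 48.9 CPM in the transgenic mice, so that the transgenic mice lay on both sides of the 5xFAD mice. The log2 fold change of Cxcl10 was -0.20 (SE 0.42, 95% interval -1.25 to 0.85), 0.07 without Cd5l-transgenic mouse 2 and -0.69 without mouse 3 (edgeR unadjusted p = 0.00626, adjusted p = 0.874).

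**Figure D3:**
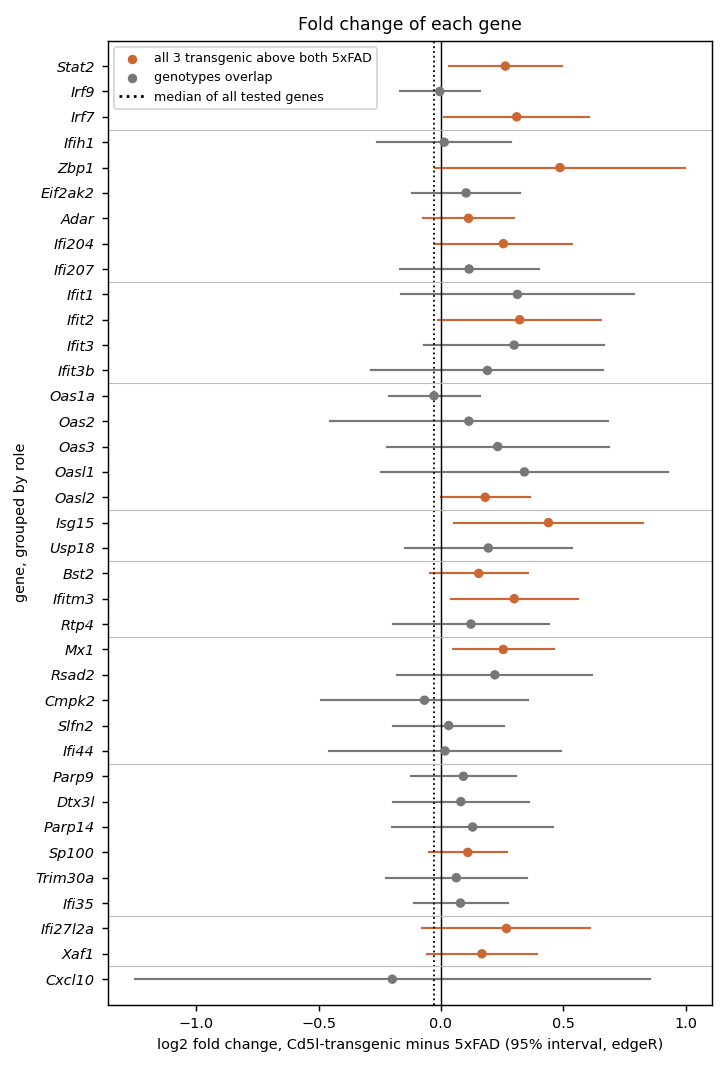
edgeR log2 fold change (Cd5l-transgenic minus 5xFAD) of each of the 37 genes with its 95% interval, orange where all 3 transgenic libraries exceeded both 5xFAD libraries. Most points lie between 0 and 0.5, right of the dotted median of all tested genes at -0.03, with the widest interval for Cxcl10.

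Genes without overlap occurred both with and without the motif described above. Of the 15 genes with the letters GAAANNGAAA in the window, 4 were without overlap (Stat2, Ifitm3, Bst2 and Isg15). Of the 13 without them, 6 were (Irf7, Adar, Ifit2, Oasl2, Sp100 and Xaf1). The share among all tested genes was 7.2%. Zbp1, Ifi204, Mx1 and Ifi27l2a, also without overlap, had no window and are in neither count. The median log2 fold changes were 0.19 and 0.11. These are descriptions, since promoters outside this window were not searched.

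The ligands of the pathway were almost absent and its receptor was level. Of 18 genes of type I interferons, 16 had 0 counts in all 5 libraries, where the limit that a count of 0 allows, 3 counts, is 0.0847 to 0.102 CPM. The interferon beta gene Ifnb1 had 15 and 1 counts in 5xFAD mice 1 and 3 and 2, 7 and 13 counts in Cd5l-transgenic mice 1, 2 and 3, and Ifna7 had 1 count in 1 library. Ifnar1 stood at 126 and 114 CPM in the 5xFAD mice against 111, 118 and 132 CPM in the transgenic mice (log2 fold change 0.01, 95% interval -0.22 to 0.25). Ifnar2 stood at 165 and 132 CPM in the 5xFAD mice against 159, 149 and 151 CPM in the transgenic mice (log2 fold change 0.04). For both receptor genes the transgenic values lay within or across the 5xFAD range.

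Of the 12 genes of the receptor and its JAK-STAT pathway, edgeR called 0 (also 0 at an unadjusted p under 0.05) and 7 lay above 0, with a median of 0.02. In 1 of the 12 (8.33%, against 8.69% of all genes) every transgenic library lay lower, and in 0 every one lay higher. The 1 was Socs3, a feedback inhibitor of cytokine signalling. It stood at 395 and 389 CPM in the 5xFAD mice against 315, 230 and 364 CPM in the transgenic mice (log2 fold change -0.37, SE 0.19, edgeR adjusted p = 0.995). Ptpn11, a tyrosine phosphatase, had a log2 fold change of 0.16.

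Of the 20 tested genes that sense nucleic acids and induce interferon, edgeR called 0 (1 at an unadjusted p under 0.05), 9 lay above 0, and the median was -0.0042. In 1 of the 20 (5%, against 7.2% of all genes) every transgenic library lay higher. The 1 was Dhx58, the RNA helicase LGP2 and itself interferon-stimulated. It had 38.1 and 36.1 CPM in the 5xFAD mice against 41.9, 41.3 and 45.0 CPM in the transgenic mice (log2 fold change 0.20, SE 0.08). Samhd1 and Ddx58, a nucleotide hydrolase and the RNA helicase RIG-I, had log2 fold changes of 0.26 and 0.14 with overlap. The 5 tested genes of type II interferon signalling had a median of 0.09, and edgeR called 0 of them (also 0 at an unadjusted p under 0.05). Among these Ciita, the activator of MHC class II genes, stood at 0.91 (SE 0.56), while Jak2 and Ifngr1 stood at 0.09 and 0.06.

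A second list of 60 interferon-stimulated genes that are not among the 37 leaned the same way. Of these, 52 (86.7%, against 42.7% of all tested genes) lay above 0, with a median of 0.13. Without overlap, 13 (21.7%, against 7.2% of all tested genes) lay higher and 2 (3.33%, against 8.69%) lay lower. edgeR called 0 of the 60. Its unadjusted p fell under 0.05 for 1 gene in each direction, close to the shares of all genes (1.14% higher, 1.5% lower). The summed level of the 60 genes was 4856 and 4870 CPM in the 5xFAD mice. It was 5387, 5135 and 5201 CPM in the transgenic mice, a ratio of means of 1.08. Ifi211 of the p200 family stood at 10.4 and 9.96 CPM in the 5xFAD mice against 13.9, 11.4 and 14.0 CPM in the transgenic mice (log2 fold change 0.36, SE 0.14). Pml, the organiser of the nuclear bodies that hold SP100, stood at 0.25 (SE 0.10) without overlap. Ifi27 went the other way from its relative Ifi27l2a, with 107 and 108 CPM in the 5xFAD mice against 89.8, 98.6 and 84.1 CPM in the transgenic mice (log2 fold change -0.24, SE 0.09, edgeR unadjusted p = 0.0363, adjusted p = 0.995).

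The 8 microglial markers summed to 22970 and 22170 CPM in the 5xFAD mice against 24260, 22310 and 23400 CPM in the transgenic mice, with overlap. Of them 6 lay above 0 (75%, against 42.7% of all tested genes), with a median log2 fold change of 0.07. In 2 (25%, against 7.2%) every transgenic library lay above both 5xFAD libraries. Markers of other cell types also differed between the libraries. The 8 endothelial markers summed to 622 and 587 CPM in the 5xFAD mice against 657, 1192 and 685 CPM in the transgenic mice, and all 8 had a log2 fold change above 0 (median 0.69). The mural list of 7 genes summed to 179 and 249 CPM in the 5xFAD mice against 249, 446 and 339 CPM in the transgenic mice. The monocyte markers, of which S100a4 had 0 counts throughout, summed to 17.3 and 21.5 CPM in the 5xFAD mice against 38.8, 26.8 and 25.6 CPM in the transgenic mice. The endothelial, mural and monocyte sums, like those of the interferon genes, did not overlap between the genotypes, although the nearest mural sums differed by less than 1 CPM. Neutrophils carry CD11b as well, and all 6 of their markers had a log2 fold change above 0 (median 1.06), with sums of 43.9 and 56.9 CPM in the 5xFAD mice against 153, 114 and 55.5 CPM in the transgenic mice. The neutrophil sums overlapped through Cd5l-transgenic mouse 3, the library highest in the interferon genes. The 5 erythroid genes also had no overlap, with sums of 1.47 to 2.41 CPM in the 5xFAD mice against 7.40 to 20.8 CPM in the transgenic mice.

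The border macrophage list of 6 genes was highest in Cd5l-transgenic mouse 3 (373 CPM) and lowest in mouse 2 (203 CPM), and 5xFAD mouse 3 held the most choroid plexus and ependymal RNA (2775 CPM, against 250 to 527 CPM in the others). Oligodendrocyte markers reached 4043 CPM in Cd5l-transgenic mouse 2 and 328 to 1035 CPM elsewhere. The astrocyte markers summed to 297 and 314 CPM in the 5xFAD mice against 352, 426 and 304 CPM in the transgenic mice. Neuron markers were low, at 2.27 and 2.03 CPM in the 5xFAD mice against 3.65, 6.99 and 2.00 CPM in the transgenic mice. The 6 plasmacytoid dendritic cell markers summed to 946 and 1020 CPM in the 5xFAD mice against 1241, 1030 and 1105 CPM in the transgenic mice, again without overlap. Most of that sum was Siglech (737 to 1016 CPM), which microglia also express, and Tcf4 (166 to 176 CPM), with Cox6a2 at 24.9 to 52.4 CPM. Of the same list Klk1 had 0 to 1 counts in every library, Ly6d at most 0.136 CPM and Ccr9 at most 0.441 CPM. In bulk RNA, more cells of a type and more RNA per cell cannot be told apart. The part of the RNA of any of these marker lists, the microglial list included, in the higher interferon genes was not tested.

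**Figure D4:**
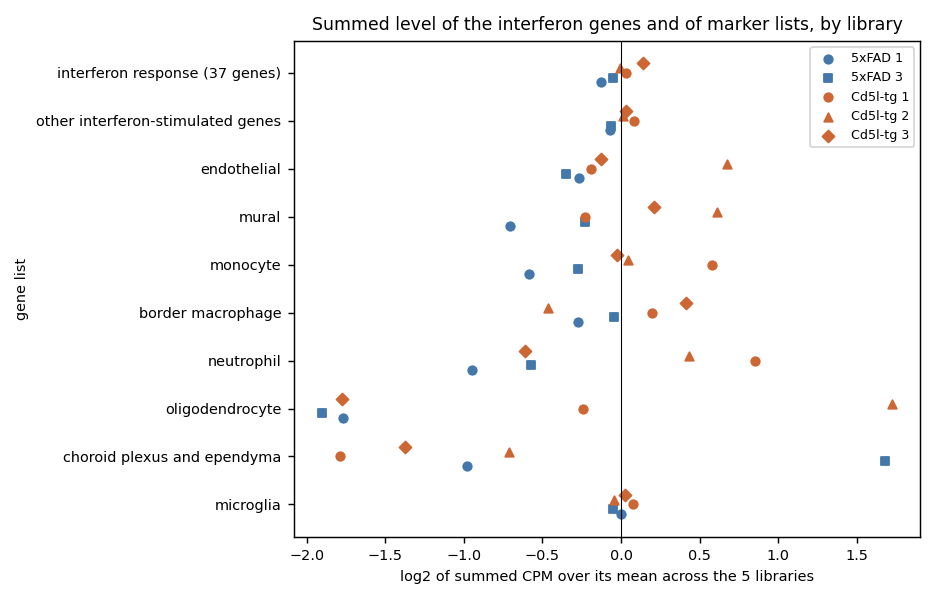
Summed CPM of the 37 interferon response genes, of 60 other interferon-stimulated genes and of 8 marker lists in each library, as the log2 ratio to the mean of the 5 libraries (blue 5xFAD, orange Cd5l-transgenic, 1 symbol per mouse). The interferon lists spread little, while the endothelial and oligodendrocyte lists stand out in Cd5l-transgenic mouse 2 and the choroid plexus list in 5xFAD mouse 3.

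Leaving out single libraries kept the median of the 37 genes above 0. It was 0.12 without 5xFAD mouse 1 and 0.17 without 5xFAD mouse 3, and 0.16, 0.175 and 0.15 without Cd5l-transgenic mice 1, 2 and 3. Without Cd5l-transgenic mouse 2, 34 of 37 genes lay above 0, and without 5xFAD mouse 1, the library lowest in the interferon genes, 28 did. The count without overlap is easier to reach with fewer libraries: without 5xFAD mouse 3 it was 25 of 37, against 24.5% of all genes, and without 5xFAD mouse 1 it was 16, against 20.5%. With 5xFAD mouse 3 and Cd5l-transgenic mouse 2 both left out, a choice made after seeing the data, the median was 0.24 and edgeR called 0 of the 37 genes (lowest adjusted p = 0.263).

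**Figure D5:**
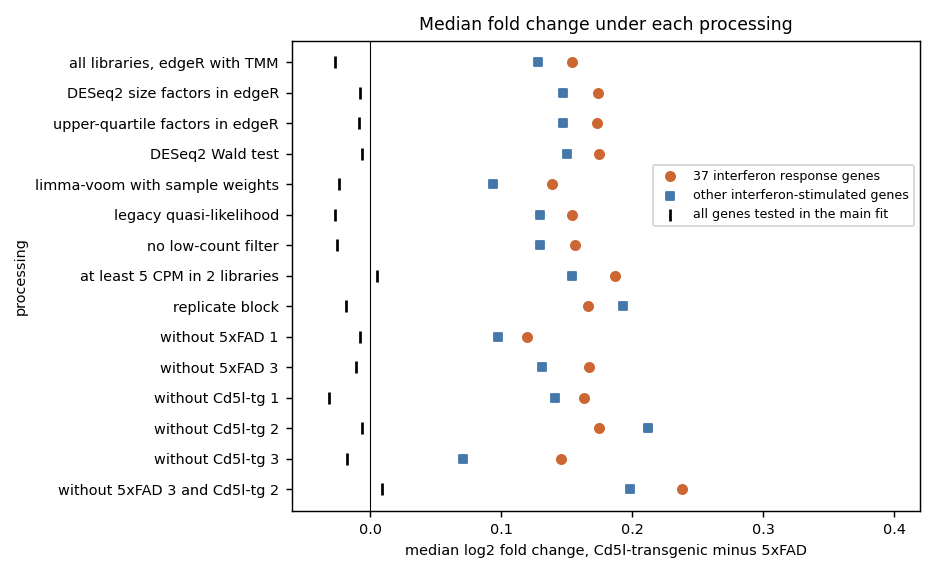
Median log2 fold change (Cd5l-transgenic minus 5xFAD) of the 37 interferon response genes (orange), the other interferon-stimulated genes (blue) and all tested genes (black) under the processing described and under each alternative. The median of the 37 genes lies between 0.12 and 0.24 and that of all genes between -0.03 and 0.01.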

How the data were processed

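The authors deposited raw counts in 1 table, with 1 row per Ensembl gene, 1 column per library and no normalisation. The genome build was GRCm39, per the submitters' processing notes, and no source used here names the aligner, the counting tool or the strandedness. Columns were matched to libraries by name, 1 of them with its letter pairs in the opposite order. Counts were filtered with filterByExpr of edgeR 4.0.16, scaled by TMM (CPM below are on that scale) and tested with the robust quasi-likelihood test under R 4.3.3, with genotype as the only term and Benjamini-Hochberg adjustment over all 17724 tested genes (threshold 0.05). Standard errors are the fold change divided by the square root of F. No gene list was tested as a set. Alternatives were DESeq2 1.42.0, limma-voom (limma 3.58.1), other scalings and filters, the replicate number as a block, and each library left out. On simulated counts for this comparison, over 17724 genes, edgeR found 36 of 100 genes simulated with a 2-fold change and 81 of 100 with an 8-fold change, and wrongly called 21 others. The numbers for DESeq2 were 48, 87 and 71. The simulated counts were drawn around each gene's mean over the libraries, without the differences in other cell types seen here. Changes below 2-fold, as in the 37 genes, were not simulated. In the real counts edgeR did not call even Cd5l (edgeR adjusted p = 0.448). The simulation therefore cannot show what size of change would be found in these libraries. The members, lists and tests were chosen with earlier results of these data known. All 37 members are accounted for, with values per library for those without overlap, those with an unadjusted p under 0.05 and the extremes of each role group. Of each pathway list up to 3 genes with the smallest p are named, plus Ifnar1, Ifnar2 and Cd5l; 1 further gene of that rule is not reported here. The labels number the mice, and p-values measure the spread between these libraries.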

Additional observations from a re-analysis of the deposited data

How the results depend on the processing

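Of the 37 genes, 26 kept their sign under all 14 alternatives, among them the 14 without overlap. Those 14 were picked by the order of these same libraries. Their sign could therefore hardly change, and that they kept it is no support. No alternative called a member (lowest adjusted p = 0.263). The count of genes called among all genes was 0 by edgeR, 15 by DESeq2 (12 higher), from 0 to 10 with 1 library left out, and 41 with 5xFAD mouse 3 and Cd5l-transgenic mouse 2 both left out. In that last fit, added after seeing the data, the median of the members was 0.24 and 31 were without overlap, against 34.2% of all genes. With 1 library left out, that count ran from 15 (without Cd5l-transgenic mouse 3, against 17% of all genes) to 25 (without 5xFAD mouse 3, against 24.5%), and the median from 0.12 to 0.175. Where 5xFAD has 1 mouse left, that mouse is assumed to vary like the others.

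The 11 genes whose sign changed all lay near 0 or spread widely. Irf9 was at 0.014 with DESeq2 size factors, 0.013 with upper-quartile factors, 0.016 by DESeq2, 0.0073 by limma-voom, 0.027 with a filter of 5 CPM in 2 libraries and 0.0083 with the replicate block. By limma-voom Ifih1 was at -0.078, Oas2 at -0.0064 and Ifi44 at -0.10. With the 5 CPM filter Oas1a was at 0.0042, and with the replicate block Ifi44 was at -0.14. Without both libraries named above, Irf9 was at 0.039, Cmpk2 at 0.058, Ifi44 at -0.013 and Cxcl10 at 0.15. With 1 library left out, the ranges were -0.026 to 0.021 for Irf9, -0.053 to 0.0896 for Ifih1, -0.0046 to 0.43 for Ifit3b, -0.075 to 0.019 for Oas1a, -0.098 to 0.37 for Oas2, -0.049 to 0.32 for Rtp4, -0.14 to 0.14 for Ifi44, -0.034 to 0.17 for Trim30a, -0.22 to 0.12 for Cmpk2, -0.015 to 0.094 for Slfn2 and -0.69 to 0.069 for Cxcl10. The cause of these changes was not tested. With the replicate number as a block the median of the members was 0.17 and 0 members and 0 genes were called. Nothing in the labels ties same-numbered mice together. Their deviations from the group means correlated over genes at 0.139 (Pearson r) for number 1 and -0.241 for number 3, but 2 5xFAD mice mirror each other around their mean, so that these values cannot show whether the numbers pair the mice.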

Other observations

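Cd5l stood at 234, 335 and 195 CPM in Cd5l-transgenic mice 1, 2 and 3, and the summed interferon response genes at 2280, 2218 and 2456 CPM. The median centred log2 level of the interferon genes was 0.0179, 0.00755 and 0.148. In mouse 2, the mouse with the most Cd5l, 9 of the 37 genes were highest (24.3%, against 21.2% of all genes). The neuron, astrocyte and oligodendrocyte marker sums were also highest in mouse 2. With 3 mice no relation was tested.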
